A study of Mus musculus with 16 samples.

Results

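The 6 skeletal myosin heavy chain genes examined here, *Myh1*, *Myh2*, *Myh4*, *Myh7*, *Myh3* and *Myh8*, were selected by gene name from a table of raw read counts for 25054 genes in 16 mouse osteosarcomas. All 6 passed the filter on low counts, which kept 15413 genes for testing. The RNA of these isoforms made up between 4.98e-05% and 4.53% of the counts of a tumor, and the ranges of the *Arid1a* KO and WT tumors overlapped for every isoform. No isoform passed the test between the groups. The sign of the fold change of all 6 rested on the KO tumors Montana and Oregon. The mix of isoforms could be read in tumors with enough counts, where *Myh4* usually led, and it differed most in the WT tumor labeled lung, where nearly all counts were on *Myh7*.

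All 16 tumors came from mice with the genotype OsxCreERT2+/-, p53fl/fl and Rb1fl/fl, in which a tamoxifen-inducible Cre under the *Osterix* promoter acts in cells of the osteoblast lineage, so that *Trp53* and *Rb1* were conditional in both groups. The 8 KO tumors also carried Arid1afl/fl and came from 8 mice, whereas the 8 WT tumors lacked the floxed *Arid1a* allele and came from 4 mice, 4 of them from N42 and 2 from N43. Tamoxifen was injected at 400 μg per gram at 1 month of age, the mice were older than 6 months, and both sexes were included without a record for each tumor. Body sites are labeled for the WT tumors only. The comparison asks how the RNA of tumors with the floxed *Arid1a* allele differs from that of tumors without it.

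The libraries held 1109487 to 15059640 counts in KO (median 5367670) and 7806160 to 16962329 in WT (median 14828152), so rare transcripts were seen less well in KO. A count of 3 corresponded to 6.69 CPM (counts per 1e6 counts of the TMM-normalized library) in Massa, the shallowest library, and to at most 0.340 CPM in the WT libraries. *Arid1a* counted over the whole gene lay between 107 and 270 CPM in KO and between 125 and 236 CPM in WT (log2 fold change 0.16, standard error 0.22, edgeR adjusted p = 0.715), and these counts do not separate the floxed exons from the others. Summed over 11 osteoblast genes such as *Col1a1*, the main collagen chain of bone, the level was 715 to 60205 CPM in KO and 2899 to 84012 CPM in WT. In Montana it was 2518 CPM and in Oregon 2745 CPM, with *Col1a1* at 1567 and 1515 CPM against 1561 to 47558 CPM in WT. The other chain, *Col1a2*, had a mean of 5836 CPM ± 6523 in KO and 16043 ± 11211 in WT, and *Spp1*, osteopontin, 276 ± 290 and 2132 ± 1394 (SD, n = 8 each). Of the 11 genes edgeR called 0, where 4.01% of all genes were called. DESeq2 called 4, all lower in KO, where 12.5% of all genes were called. These were *Spp1* (−2.89), *Bglap* (−3.77), *Bglap2* (−3.68) and *Alpl* (−2.14), with DESeq2 adjusted p from 0.00992 to 0.0369. The last 3 were named after their values were seen. Tumors of the same mouse are not independent, so the p-values measure the spread between tumors and not strictly between animals.

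Myosin heavy chain is the motor protein of the thick filament of the sarcomere, and each muscle fiber is typed by the isoform it makes. *Myh4* encodes the fast isoform of type IIb fibers, which contract fastest and rely on glycolysis, *Myh1* that of type IIx fibers and *Myh2* that of the more oxidative type IIa fibers. *Myh7* encodes the slow isoform, which type I skeletal fibers share with the heart, in the mouse mainly before birth. *Myh3* is the embryonic and *Myh8* the perinatal isoform, both made in developing muscle and again when adult fibers regenerate. These genes are transcribed in muscle cells, and in a bulk tumor sample fewer muscle cells and less RNA per cell cannot be told apart.

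On the plus strand of chromosome 11 (GRCm38) 5 of the genes lie in a row, in the order *Myh3* (chr11:67078300-67102291), *Myh2* (chr11:67171027-67197517), *Myh1* (chr11:67200052-67224575), *Myh4* (chr11:67238029-67260446) and *Myh8* (chr11:67277124-67308634), whereas *Myh7* lies on the minus strand of chromosome 14 (chr14:54970684-54994626). Their longest annotated coding transcripts are of nearly the same length, from 6016 bases for *Myh4* to 6230 for *Myh7*. The stretches upstream of the RefSeq start are printed here for the 4 isoforms that share the runs described next. *Myh3*, whose RNA varied with theirs across the tumors (Pearson's r of log2 CPM from 0.87 with *Myh2* to 0.95 with *Myh8*), has neither run. The sequences are from RefSeq (GRCm38.p6), plus strand, at chr11:67199852-67200051 for *Myh1*, chr11:67170777-67171026 for *Myh2*, chr11:67237562-67237811 for *Myh4* and chr11:67276874-67277123 for *Myh8*. That of *Myh1* stops 50 bases short of the RefSeq start, where GENCODE begins the gene, and the other 3 end at the start. Capitals mark a 14-base run, TTCTAATTATATCC, and a 15-base run, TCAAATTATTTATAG.
Myh1: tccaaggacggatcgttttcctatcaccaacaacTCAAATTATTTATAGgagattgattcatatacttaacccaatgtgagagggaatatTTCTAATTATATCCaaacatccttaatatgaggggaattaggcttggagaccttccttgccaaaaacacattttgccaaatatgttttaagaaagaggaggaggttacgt
Myh2: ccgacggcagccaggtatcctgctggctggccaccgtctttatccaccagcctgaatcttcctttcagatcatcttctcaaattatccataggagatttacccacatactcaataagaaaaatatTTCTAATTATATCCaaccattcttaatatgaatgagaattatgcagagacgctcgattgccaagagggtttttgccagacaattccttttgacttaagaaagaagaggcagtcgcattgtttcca
Myh4: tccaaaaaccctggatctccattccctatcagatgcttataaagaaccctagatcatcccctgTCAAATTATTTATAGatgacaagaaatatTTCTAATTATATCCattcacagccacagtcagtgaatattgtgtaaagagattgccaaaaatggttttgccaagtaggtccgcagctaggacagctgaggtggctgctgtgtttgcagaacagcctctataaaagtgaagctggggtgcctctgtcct
Myh8: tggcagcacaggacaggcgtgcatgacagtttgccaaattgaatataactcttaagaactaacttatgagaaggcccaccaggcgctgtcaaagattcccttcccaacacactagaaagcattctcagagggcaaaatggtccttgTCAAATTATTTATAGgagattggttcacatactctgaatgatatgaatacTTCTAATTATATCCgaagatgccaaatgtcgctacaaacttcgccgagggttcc

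The 14-base run began at position −160 from the RefSeq start in *Myh1*, −125 in *Myh2*, −158 in *Myh4* and −54 in *Myh8*. Both runs were picked as letters that these windows share, so their presence here was given in advance. The search covered both strands of 32851 windows of the 250 bases before a RefSeq start. Windows of a chromosome that holds none of the 6 genes were left out. The 14-base run was found in these 4 windows and no other, or 0.0122%. The 15-base run began at −216 in *Myh1*, −187 in *Myh4* and −104 in *Myh8*, and was found in these 3 windows, or 0.00913%. It holds on its other strand the letters TATAAA, the core of the TATA box, which occurred in 12.4% of all windows. Neither run was in the window of *Myh7*. The E-box letters CANNTG, which the MyoD family binds, were in the windows of *Myh4*, *Myh7*, *Myh3* and *Myh8* and in 66.2% of all windows, and not in those of *Myh1* and *Myh2*. These matches describe the letters only.

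The coding sequences are alike enough that a 50-base read cannot always be placed, which bears on every count below. The longest run identical in *Myh4* and *Myh8* is 164 coding bases, in exons 23 to 24 of *Myh4* (chr11:67252200-67252559, which includes the intron) and exons 24 to 25 of *Myh8* (chr11:67297464-67297706). It is shown for *Myh4* from the GENCODE vM21 transcript, plus strand, without capitals because no base differs from *Myh8*.
Myh4: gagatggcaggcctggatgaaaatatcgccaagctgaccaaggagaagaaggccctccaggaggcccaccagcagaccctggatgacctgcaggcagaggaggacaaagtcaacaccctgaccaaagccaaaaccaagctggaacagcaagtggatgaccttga

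A read from within this run matches both genes. Of the 50-base positions of each transcript, 26.7% of *Myh1*, 26.9% of *Myh2*, 18.9% of *Myh4*, 22.2% of *Myh7*, 4.81% of *Myh3* and 21.4% of *Myh8* also occur in a transcript of another gene. For *Myh7* these positions are all shared with *Myh6*, the heart isoform encoded next to it. The authors allowed up to 50 alignments per read and kept the best, and how a read with equal best alignments was assigned is not given in the sources used here. *Myh3* therefore has the smallest part of its own positions open to this. The small counts of *Myh8* and of *Myh3* beside a large count of *Myh4* are uncertain all the same.

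**Figure D1:**
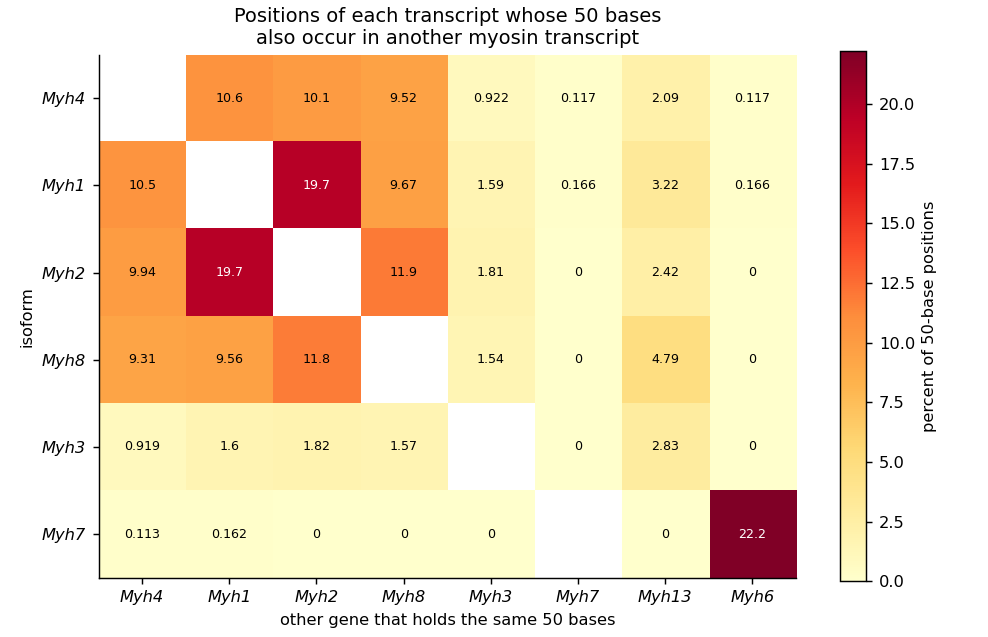
Percent of the 50-base positions of each isoform's transcript (rows) whose letters also occur in the transcript of another myosin gene (columns). *Myh1* and *Myh2* share 19.7% of positions, *Myh4* shares 9.52% with *Myh8*, and *Myh7* shares 22.2% with *Myh6*.

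The summed counts of the 6 isoforms ran from 5 to 260016 and separated single tumors more than the groups. In KO they were 5 in Zelda, 9 in Prince, 11 in Massa, 57 in Grilka, 383 in Ohio, 449 in Medusa, 160908 in Montana and 260016 in Oregon. In WT they were 434 in the right femur, 5009 in the left shoulder, 9853 in the left limb and 14069 in the right pelvis of N42, 19925 in the spine and 86071 in the pelvis of N43, 19420 in the right hind limb of N215 and 1058 in the lung of N25. Scaled to library size, the sum was 0.339 to 72712 CPM in KO (median 56.5) and 24.7 to 4315 CPM in WT (median 591). Montana and Oregon lay above every WT tumor, and the other 6 KO tumors, at up to 94.8 CPM, lay below 6 of the 8 WT tumors.

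*Myh4*, the fast IIb isoform, had the highest counts. Its level was 0 CPM in Massa, Prince and Zelda, 8.30 in Ohio, 34.2 in Medusa, 49.7 in Grilka, 31730 in Montana and 70541 in Oregon, with a KO median of 21.3 CPM. In WT it was lowest in the N25 lung tumor (0.387 CPM) and highest in the N43 pelvis tumor (2606 CPM), with a median of 377 CPM. Oregon and Montana were therefore high beyond the WT range and the remaining 6 KO tumors were low, so that the KO range enclosed that of WT. The limit for the counts of 0 was 6.69 CPM in Massa, 0.249 CPM in Prince and 0.203 CPM in Zelda (3 counts, counting error only).

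*Myh1*, the IIx isoform, ranged from 0 to 5906 CPM in KO (median 16.5) and from 0.194 to 1158 CPM in WT (median 125). *Myh2*, the IIa isoform, ranged from 0 to 1474 CPM in KO (median 6.16) and from 0.0645 to 440 CPM in WT (median 24.3). In both, Montana was the highest tumor and Oregon the second, with *Myh1* at 1444 CPM and *Myh2* at 581 CPM in Oregon, and the groups overlapped.

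*Myh7*, the slow isoform, ranged from 0 CPM in Ohio and Zelda to 1838 CPM in Montana in KO (median 4.93) and from 0.827 CPM in the left shoulder of N42 to 67.6 CPM in the N25 lung tumor in WT (median 15.5). Oregon, which had the most *Myh4*, had 40.8 CPM of *Myh7*, within the WT range. Montana alone was above the WT tumors.

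*Myh3*, the embryonic isoform, ranged from 0 to 45.7 CPM in KO (median 1.20) and from 0.0645 to 19.6 CPM in WT (median 2.76). *Myh8*, the perinatal isoform, ranged from 0 to 82.8 CPM in KO (median 0.651) and from 0 to 40.5 CPM in WT (median 3.79). The highest *Myh3* was in Montana and the highest *Myh8* in Oregon, followed among WT by the right pelvis of N42, with 19.6 CPM of *Myh3* and 35.9 CPM of *Myh8*, and the pelvis of N43, with 19.1 and 40.5 CPM. The groups overlapped for both isoforms.

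**Figure D2:**
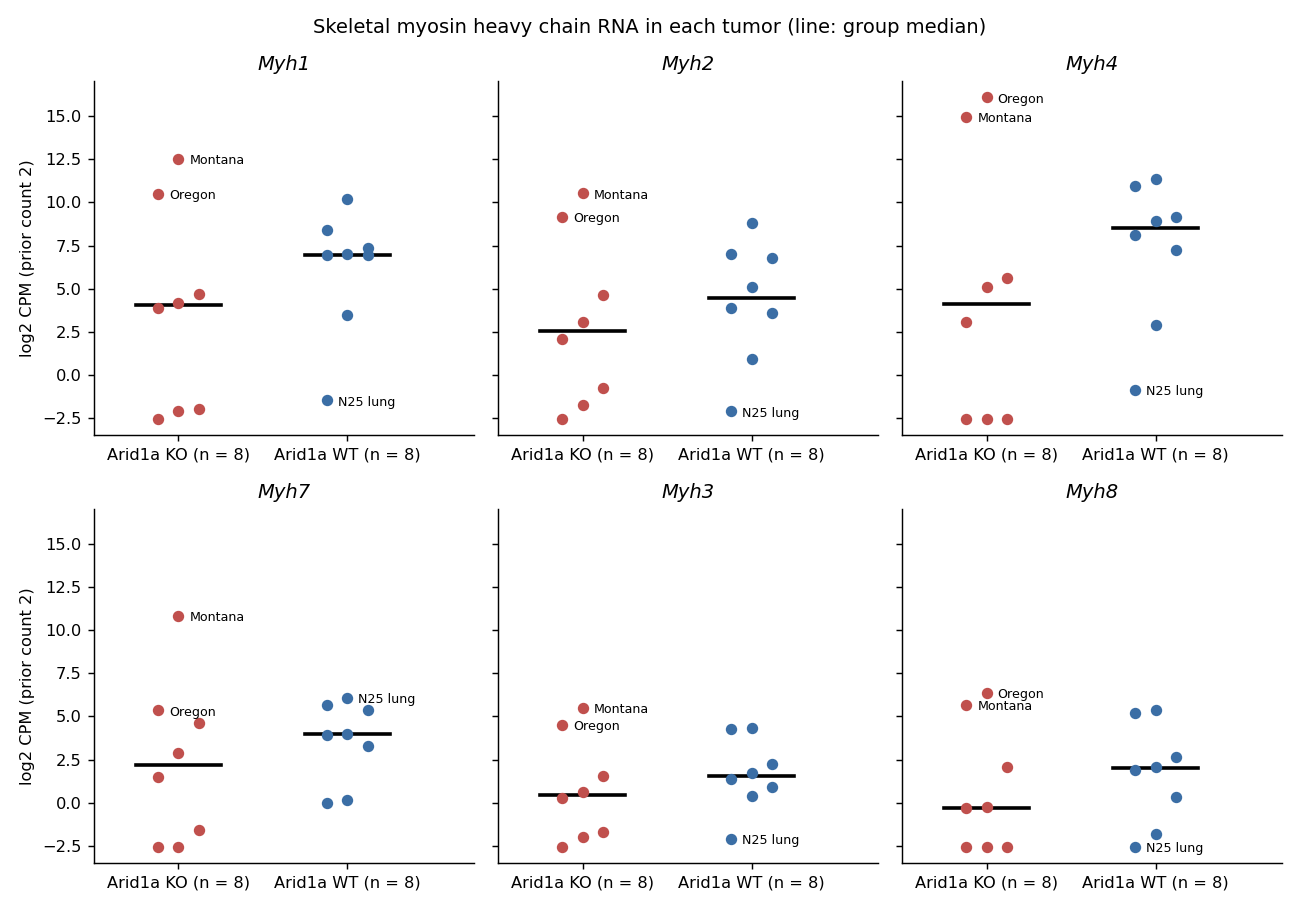
Level of each isoform as log2 CPM with a prior count of 2 (vertical axis) in the 8 KO and 8 WT tumors (points), with the group median as a line. The KO median lies below the WT median for all 6 isoforms, and Montana and Oregon are the highest KO points in each.

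Per kilobase of transcript the order in WT was *Myh4* (median 62.7 CPM per kb), *Myh1* (20.5), *Myh2* (3.99), *Myh7* (2.49), *Myh8* (0.617) and *Myh3* (0.458). *Myh4* was above *Myh1* in 7 of 8 WT tumors and *Myh1* above *Myh2* in 8 of 8. *Myh2* exceeded *Myh7* in 6 of 8, *Myh7* exceeded *Myh8* in 5 of 8 and *Myh8* exceeded *Myh3* in 5 of 8, so the lower neighbors in this order were not separated beyond the spread between tumors. In KO the order was the same except that *Myh3* (0.198 CPM per kb) came before *Myh8* (0.106), and *Myh4* was above *Myh1* in 4 of 8 tumors, below it in 3 and equal, at 0, in 1.

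The test across all genes called no isoform between KO and WT. The quasi-likelihood test of edgeR with Benjamini-Hochberg adjustment called 0 of the 6, and 0 at an unadjusted p under 0.05, while 618 of the 15413 genes tested were called, or 4.01%. The log2 fold change, KO minus WT, was 4.08 for *Myh4* (standard error 2.25, 95% interval −0.66 to 8.82, edgeR adjusted p = 0.286) and 3.24 for *Myh7* (standard error 1.66, 95% interval −0.26 to 6.74, edgeR adjusted p = 0.252). For the other fast isoforms it was 1.86 for *Myh1* (standard error 1.68) and 1.50 for *Myh2* (standard error 1.56), with edgeR adjusted p = 0.543 and 0.603. For the developmental isoforms it was 0.56 for *Myh3* (standard error 1.11) and 0.63 for *Myh8* (standard error 1.39), with edgeR adjusted p = 0.810 and 0.829. The intervals of *Myh4* and *Myh7* span 0 and run from a small decrease to a very large increase. The median over all genes tested was 0.10.

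The positive sign of these values was the sign of Montana and Oregon. Without these 2 tumors, a choice made after the data were seen, the log2 fold change was −5.68 for *Myh4*, −4.68 for *Myh1*, −3.78 for *Myh2*, −2.69 for *Myh7*, −2.84 for *Myh3* and −4.49 for *Myh8*. Taking out the 2 highest KO tumors lowers the KO level by construction, so these values show where the sign comes from and support no difference. Again none was called (edgeR adjusted p between 0.0992 and 0.308, 2.25% of genes called). In this fit 5 of the 6 had an unadjusted edgeR p under 0.05, to which the same limit of construction applies. With limma-voom and the mouse as a random effect all 6 were also negative, from −3.64 for *Myh4* to −0.082 for *Myh8* (adjusted p from 0.705 to 0.995, 0.11% of genes called). DESeq2 gave 4 positive and 2 negative values and called 0 of the 6 (12.5% of genes called). Leaving out Montana alone turned *Myh1* (−0.25), *Myh2* (−0.060), *Myh7* (−1.32) and *Myh3* (−0.61) negative, and leaving out Oregon alone turned *Myh8* negative (−0.47). The 2 tumors also had low summed levels of the osteoblast genes, given above. So did Prince (715 CPM), Massa (3007 CPM) and the N25 lung tumor (2899 CPM), which had far fewer isoform counts. The part of the osteoblast levels in the isoform values was not tested.

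**Figure D3:**
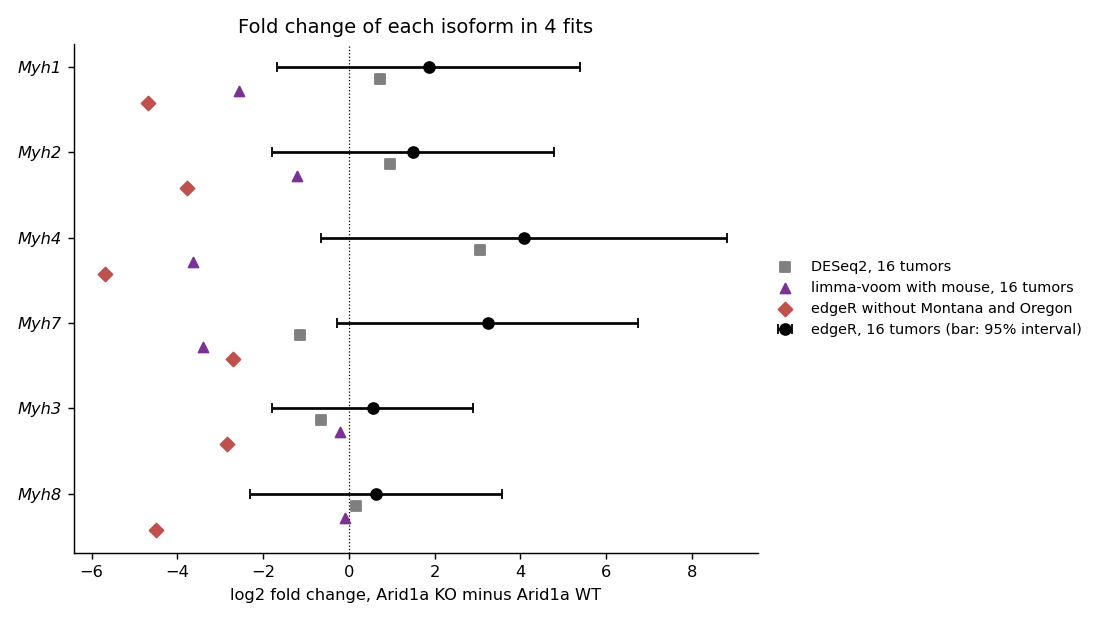
Log2 fold change of each isoform, KO minus WT (horizontal axis), in edgeR with all 16 tumors (black points, bars for the 95% interval) and in 3 other fits (colored symbols). The edgeR values are positive for all 6 with intervals across 0, while all 6 are negative in limma-voom and in edgeR without Montana and Oregon.

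Since a share does not depend on library size, the mix of isoforms was described as the percent of each in the 6 summed counts. *Myh4* was the leading isoform in 4 KO and 6 WT tumors, *Myh1* in Ohio and in the right femur of N42, *Myh2* in Prince and Zelda, and *Myh7* in Massa and in the N25 lung tumor. In 4 KO tumors, Massa, Prince, Grilka and Zelda, the sum was under 100 counts, and a share there is little more than a handful of reads. The 5 counts of Zelda, for example, were 1 on *Myh1* and 2 each on *Myh2* and *Myh3*, and its *Myh2* share of 40.0% has a Clopper-Pearson 95% interval of 5.27% to 85.3%.

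Among the 4 KO tumors with more counts, the *Myh4* share was 97.0% in Oregon, 77.3% in Montana, 36.1% in Medusa and 22.7% in Ohio. In the WT tumors it was 88.6% in the hind limb of N215, 69.9% in the right pelvis, 55.5% in the left limb, 51.8% in the left shoulder and 29.5% in the right femur of N42, 60.4% in the pelvis and 53.1% in the spine of N43, and 0.567% in the N25 lung tumor. In Oregon and N215 nearly all isoform counts were thus on *Myh4*. In Oregon there were 48.9 reads of *Myh4* for each read of *Myh1*, in N215 15.4 and in Montana 5.37, while the left shoulder tumor of N42 had 1.26. Within N42, the 4 tumors of a single mouse, *Myh4* varied 65.7-fold, from 7.27 to 478 CPM, and its share from 29.5% to 69.9%. Tumors of this mouse therefore spread over much of the WT range.

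**Figure D4:**
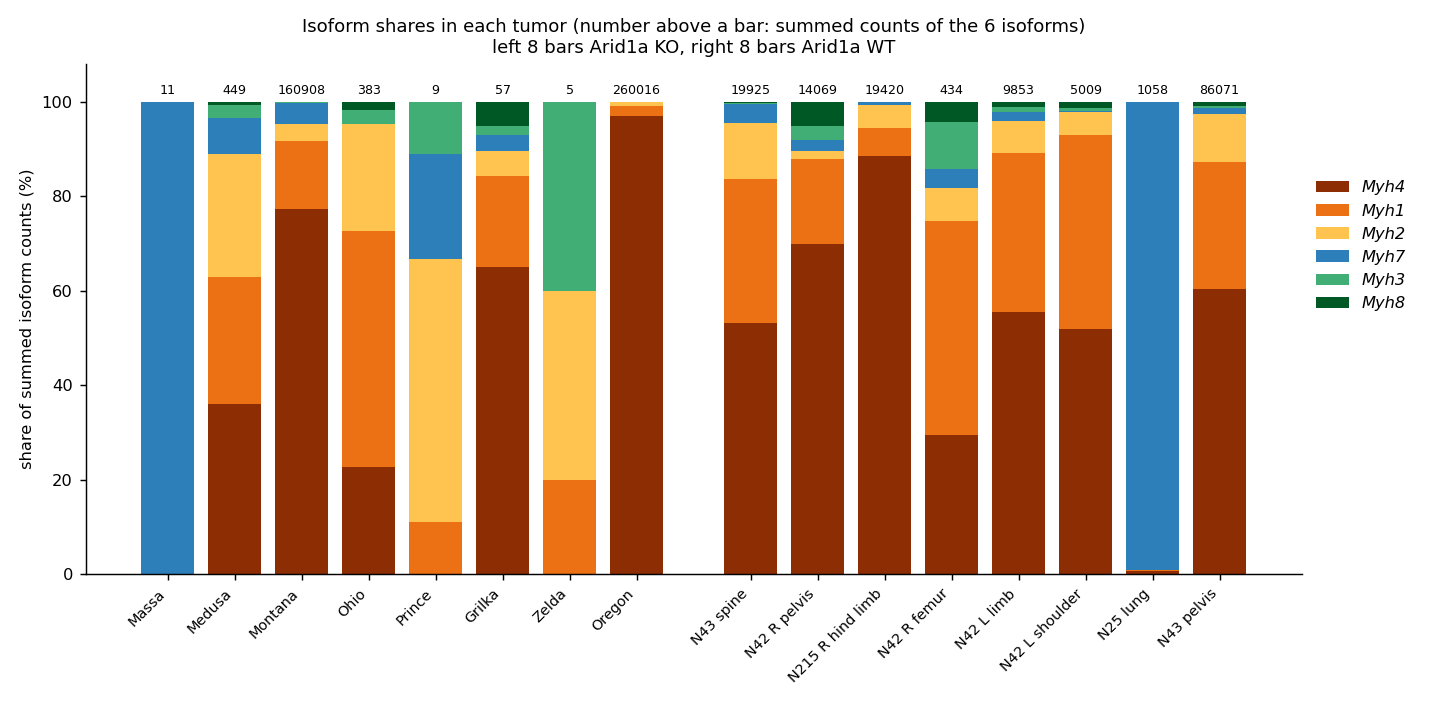
Share of each isoform in the summed counts of the 6 (vertical axis, percent) for each tumor, with the summed count above the bar. *Myh4* (dark brown) takes 97.0% in Oregon and 88.6% in N215, and *Myh7* (blue) takes 98.96% in the N25 lung tumor, while the bars of Massa, Prince and Zelda rest on 11, 9 and 5 counts.

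No isoform's mean share passed the threshold between the groups in two-sided exact permutation tests over all 12870 splits, 1 for each of the 6 isoforms and not adjusted over them. For *Myh4* it was 37.3% ± 38.4 in KO and 51.2% ± 26.4 in WT (SD, n = 8 and 8, exact permutation p = 0.406). For *Myh1* it was 17.9% ± 15.8 and 25.2% ± 16.1 (SD, n = 8 and 8, exact permutation p = 0.371). For *Myh2* it was 19.2% ± 20.6 and 5.98% ± 3.97 (SD, n = 8 and 8, exact permutation p = 0.0909), and the difference of 13.3 percentage points leaned on Prince and Zelda, whose shares of 55.6% and 40.0% rest on 5 and 2 counts. For *Myh7* it was 17.2% ± 34.2 and 14.1% ± 34.3 (exact permutation p = 0.625), with Massa and the N25 tumor as the high values of each group. For *Myh3* it was 7.35% ± 13.7 and 1.89% ± 3.36 (exact permutation p = 0.282) and for *Myh8* 0.999% ± 1.83 and 1.68% ± 2.01 (exact permutation p = 0.481).

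The *Myh2* share had the lowest p of the 6, and its difference depended on single tumors. Among tumors with at least 100 isoform counts it was 7.31 percentage points (exact permutation p = 0.174), with counts summed per mouse 14.3 (exact permutation p = 0.230) and without Prince 8.08 (exact permutation p = 0.182). Without Massa it was 16.02 (exact permutation p = 0.0472) and without Oregon 15.9 (exact permutation p = 0.0488). These were the only fits leaving out 1 tumor that passed the threshold, before any adjustment over the isoforms, and both tumors left out had low *Myh2* shares. Medusa and Ohio, which had 117 and 87 *Myh2* counts, had *Myh2* shares of 26.1% (95% interval 22.1 to 30.4) and 22.7% (18.6 to 27.2), above the 11.9% (11.5 to 12.4) of the highest WT tumor, the spine of N43. Montana (3.59%) and Oregon (0.799%) lay below the WT median of 5.88%.

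*Myh7* took 98.96% of the isoform counts in the N25 lung tumor (95% interval 98.1 to 99.5), with 1047 counts, against 0.279% to 3.92% in the other WT tumors. In the same library *Myh6*, the isoform of the atrium and of the adult mouse ventricle, had 2057 counts, or 66.3% of the reads of *Myh6* and *Myh7* together. The heart genes *Myl7*, an atrial light chain, *Nppa*, atrial natriuretic peptide, and *Tnni3*, cardiac troponin I, had 167, 22 and 169 counts there. Other genes of the heart list did not stand out in the same way. *Sln*, the calcium pump regulator sarcolipin, had 2.001 CPM in N25 against 54.4 CPM in the pelvis of N43, *Myl4*, another atrial light chain, 8.52 against 19.2 CPM in the right pelvis of N42, and *Tnnt2*, cardiac troponin T, 25.2 against 22.4 CPM in the pelvis of N43. In the other WT tumors *Myl7* had at most 1 count and *Nppa* was at 0. *Myh6* and these heart genes were chosen after their values were seen. The skeletal muscle genes were low in this tumor, with 6 counts of *Myh4* and 2 of *Acta1*, skeletal alpha-actin. The sum of 12 fast fiber genes was 7.75 CPM, the lowest in WT, while 7 lung genes summed to 26432 CPM.

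Massa, the KO tumor whose 11 isoform counts were all on *Myh7*, also had 8 counts of *Myh6*, and its 7 lung genes summed to 11230 CPM. Among these were *Scgb1a1*, the club cell secretory protein (4129 CPM in Massa and 19715 in N25), and the surfactant proteins *Sftpc* (3212 and 2411 CPM) and *Sftpb* (1601 and 2105 CPM). In the other KO tumors the lung genes summed to 0.839 to 38.3 CPM. Of the heart genes, Massa had 8 counts of *Tnni3* (17.8 CPM against 10.9 in N25) and 14 of *Tnnt2* (31.2 against 25.2). These orders rest on few counts in Massa and on the TMM normalization. Relative to the unnormalized totals of 1109487 counts in Massa and 11676275 in N25, both genes were lower in Massa, as was *Sftpc*. *Myl7* and *Nppa* had 1 count each in Massa, and 2 genes of the heart list had 0. The slow isoform in these 2 libraries therefore came with reads of *Myh6* and of lung genes, with few or no reads of the other 5 isoforms. In Montana 7207 counts of *Myh7* stood beside 665 of *Myh6*, or 8.45% *Myh6*, with *Myl7* and *Nppa* at 0 and with 1188 counts of *Tnnt1*, slow skeletal troponin T. In CPM of the TMM-normalized library, the *Myh6* level of Montana (169.6 CPM) was the highest of the 16 tumors, above that of N25 (132.8 CPM). In the same unit the sum of 8 heart genes was also highest in Montana, at 230 CPM against 194 CPM in N25. Both orders depend on the normalization. Relative to the unnormalized totals of 4991363 counts in Montana and 11676275 in N25, *Myh6* and the sum were higher in N25. *Myh6* is among the 8 and made up most of both sums, so the sum is not a separate observation. In the pelvis of N43 the sum was 96.0 CPM with 3.91 CPM of *Myh6*. The share of *Myh6* was 2.90% to 7.06% in the WT tumors with over 100 counts of *Myh7* other than N25. How far ambiguous reads, given the 22.2% of shared positions, add to these *Myh6* counts was not tested.

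The developmental isoforms *Myh3* and *Myh8* together were a small part of the mix in Montana and Oregon, the tumors with the most isoform counts. This did not hold for every tumor with many isoform counts, as the right pelvis of N42 shows. Their share was 0.234% in Montana and 0.145% in Oregon, from 377 and 378 counts. In WT it was 14.3% in the right femur of N42 (62 counts), 8.12% in the right pelvis of N42 (1142 counts), 2.13% in the left limb and 1.92% in the left shoulder of N42, 1.38% in the pelvis and 0.612% in the spine of N43, 0.0945% in the N25 tumor and 0.0566% in N215 (11 counts). The right pelvis tumor of N42 and the spine tumor of N43, with similar summed counts, had 1142 and 122 developmental counts. Medusa and Ohio had 3.56% and 4.70%, on 16 and 18 counts.

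The *Myh8* counts are open to reads of *Myh4*. In Oregon, 9.52% of the 252253 *Myh4* reads would be 24012 reads if reads were spread evenly over the transcript, where the whole *Myh8* count was 296. In the same tumor 26844 such reads would be shared with *Myh1*, which had 5162, and 2325 with *Myh3*, which had 82. The observed counts lie far below these figures, so with an even spread most of the shared reads were not given to *Myh8*, *Myh1* or *Myh3*. What part of the *Myh8* and *Myh3* counts of Oregon and Montana came from *Myh4* was not tested. The right pelvis tumor of N42 had 738 *Myh8* reads beside 9828 of *Myh4*, and N215 had 1 beside 17200.

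Across the 16 tumors the isoforms of the fast fibers varied together. Pearson's r of log2 CPM was 0.97 between *Myh4* and *Myh1*, 0.96 between *Myh4* and *Myh2* and 0.97 between *Myh1* and *Myh2*. *Myh3* and *Myh8* had r = 0.95 with each other and 0.90 and 0.85 with *Myh4*, and *Myh7* had r = 0.51 to 0.60 with the other 5. The points share library and depth, and tumors with no muscle RNA fall at the same floor, so these values are a description.

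By the same measure over 16 tumors, the 3 genes most like *Myh4* were *Tnnt3*, fast skeletal troponin T (r = 0.99), *Actn3*, the alpha-actinin of fast fibers (r = 0.99), and *Tnnc2*, fast troponin C (r = 0.99). *Myh2* came with *Myl1*, a fast essential light chain (0.97), *Tnnc2* (0.96) and *Acta1* (0.95). *Myh1* came with *Xirp2*, an actin-binding protein of the sarcomere (0.98), *Tmem182* (0.97) and *Ryr1*, the calcium release channel (0.97). *Myh3* and *Myh8* were both most like *Myog*, which encodes myogenin, the transcription factor of differentiating muscle cells (0.98 and 0.97). They were followed by *Sgca* (0.93) and *Igfn1* (0.93) for *Myh3*, and by *Hspb7* (0.90) and *Myo18b* (0.89) for *Myh8*. *Myh7* had lower values, with *Cfd*, the adipocyte serine protease adipsin (0.90), and *Adamtsl5* (0.86) among them.

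**Figure D5:**
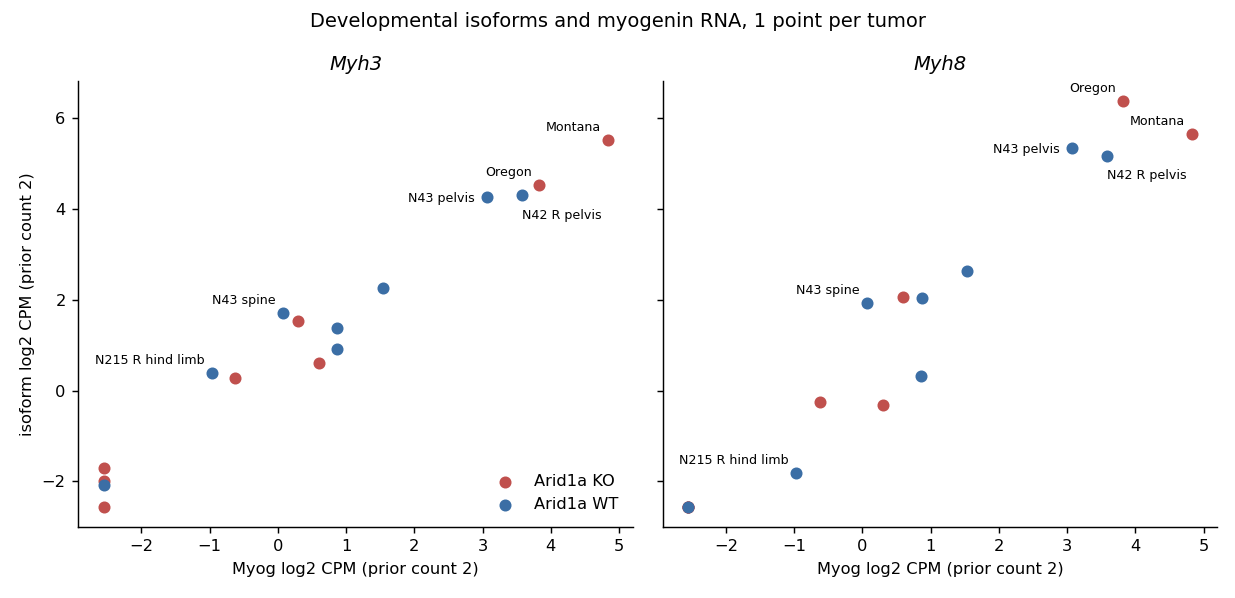
Log2 CPM of *Myh3* (left) and *Myh8* (right) against log2 CPM of *Myog*, both with a prior count of 2, for 8 KO (red) and 8 WT (blue) tumors. Points run from tumors with no *Myog* count at the lower left to Montana and Oregon at the upper right, with the pelvis tumors of N43 and N42 next to them.

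*Myog* itself had 111 counts in Montana (28.3 CPM), 50 in Oregon (13.98 CPM), 242 in the right pelvis of N42 (11.8 CPM) and 164 in the pelvis of N43 (8.22 CPM). Massa, Prince, Zelda and the N25 tumor had 0 counts, and 3 counts would be at most 6.69 CPM in these libraries. N215, which had 1951 CPM of *Myh4*, had 3 counts of *Myog* (0.340 CPM), so a tumor could hold much adult fast myosin with little of either developmental isoform or myogenin. *Pax7*, the satellite cell factor, had 42 counts in Oregon, 31 in Montana, 12 in the right pelvis of N42, 8 in the pelvis of N43 and at most 4 in the other tumors, and was named after its values were seen. *2310065F04Rik*, the long noncoding RNA linc-Myh of fast fibers, had 155 counts in Oregon, 44 in N215, 10 in Montana and at most 6 elsewhere, and was also named after its values were seen.

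Genes of the same fibers were read from lists written for this comparison, and none of their members was called in the edgeR fit, where 4.01% of all genes were. All 12 fast fiber genes had positive log2 fold changes (median 3.51), where 8611 of the 15413 genes were positive and their median was 0.10. Among them *Atp2a1*, the fast calcium pump, had a mean of 7139 CPM ± 13231 in KO and 607 ± 584 in WT (SD, n = 8 each), *Tnnt3* 1626 ± 3070 and 167 ± 182, and *Tnnc2* 863 ± 1645 and 52.5 ± 60.02. All 10 slow fiber genes were positive as well (median 1.95), and *Tnnt1* had 303 CPM in Montana, 13.98 in Oregon and at most 24.4 in WT. *Myl2*, the slow regulatory light chain, had a mean of 27.7 CPM ± 73.5 in KO and 2.85 ± 3.29 in WT, and *Atp2a2*, the calcium pump of slow fibers and of most other cells, 318 ± 227 and 286 ± 37.2 (SD, n = 8 each). Of the 19 sarcomere genes shared by fiber types, 18 were positive (median 2.78), and *Acta1* had 14506 CPM in Oregon, 10669 in Montana and 0.129 to 1345 CPM in WT. *Ckm*, muscle creatine kinase, had a mean of 3746 CPM ± 7338 in KO and 224 ± 243 in WT, and *Tpm1*, a tropomyosin, 1302 ± 2147 and 511 ± 231 (SD, n = 8 each). These signs belong to the edgeR fit. DESeq2 on the same 16 tumors gave 4 of 12 fast genes, 4 of 10 slow genes and 8 of 19 sarcomere genes positive (medians −1.97, −0.025 and −0.88, and 0.19 for all genes), and limma-voom gave 0, 4 and 3 (medians −1.75, −0.19 and −1.51, and −0.062 for all genes). Of these 3 lists DESeq2 called 2 genes, *Myom1*, an M band protein, at 3.25 and *Des*, desmin, at −1.78 (DESeq2 adjusted p = 0.00993 and 0.0470), and *Des* was at 2.72 in edgeR (edgeR adjusted p = 0.217). Both were named after these values were seen. Without Montana and Oregon all 12 fast genes, all 10 slow genes and 18 of 19 sarcomere genes were negative, with medians of −4.66, −1.91 and −4.06 against 0.04 for all genes. Of these lists that fit called *Mylk2* (−4.97) and *Myom2* (−4.51), with edgeR adjusted p = 0.0415 and 0.0386, where 2.25% of all genes were called. Both were named after their values were seen, and leaving out the highest KO tumors lowers the KO level by construction.

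The remaining lists were mixed. Of 9 tested genes of developing or regenerating fibers 5 were positive in edgeR (median 0.78), 4 in DESeq2, 4 in limma-voom and 1 without Montana and Oregon. *Myf6*, a transcription factor of the MyoD family, had a mean of 31.0 CPM ± 56.4 in KO and 8.696 ± 13.2 in WT, and *Ncam1*, an adhesion protein, 70.9 ± 63.0 and 145 ± 77.2 (SD, n = 8 each). All 3 tested satellite cell genes, of 6 in the list, were negative in these 4 fits (edgeR median −1.42), and these genes are also made by other cells. The untested genes were mixed and are named after their values were seen. *Pax7* had a mean of 2.46 CPM ± 4.66 in KO and 0.173 ± 0.221 in WT (SD, n = 8 each). *Myf5* had 0.796 ± 1.27 and 0.137 ± 0.114, and *Chrdl2* 0.0638 ± 0.180 and 0.411 ± 0.622. *Sdc4*, a syndecan, was at −1.36 and was called by DESeq2 (adjusted p = 0.0118) and not by edgeR (adjusted p = 0.0544). *Vcam1*, an adhesion protein, and *Calcr*, the calcitonin receptor, were at −1.42 and −2.83. Of 13 tested regulators of fiber type 10 were positive in edgeR (median 0.82), 10 in DESeq2, 9 in limma-voom and 6 without Montana and Oregon, with *Mef2a* at −0.34, *Mef2d* at 0.43 and *Nfix* at 1.39 in edgeR. DESeq2 called *Nfix* (1.39) and *Sox6* (2.41), a repressor of slow fiber genes that was named after its values were seen (DESeq2 adjusted p = 0.0401 and 0.0270). All 6 tested genes of myosin folding and filament assembly were positive in edgeR (median 2.60), 3 in DESeq2 (median −0.30), 0 in limma-voom (median −0.94) and 1 without Montana and Oregon (median −3.36). In edgeR *Hsp90aa1*, a chaperone, was at 0.17, *Trim63*, a ubiquitin ligase of muscle atrophy, at 1.12 and *Trim54* at 3.29. Without Montana and Oregon *Trim63* was at −6.43 and was called (edgeR adjusted p = 0.0231), where 2.25% of all genes were. Of 4 tested heart genes 1 was positive, and 4 others did not pass the filter. *Myh6* was among these, although it had 2057 counts in N25 and 665 in Montana. Among the other myosin heavy chains *Myh9*, the nonmuscle isoform of most cells, had 382 to 4153 CPM in KO and 525 to 1024 CPM in WT. Its log2 fold change was 0.60 and that of *Myh10*, another nonmuscle isoform, was 1.43, with edgeR adjusted p = 0.472 and 0.108. DESeq2 called *Myh10* (adjusted p = 0.0406). *Myh14*, also nonmuscle, was at 1.25 (edgeR adjusted p = 0.646).

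Troponin also has fast and slow forms, which gives a reading of fiber type that does not use the myosin counts. These pairs were chosen with results of these data known. The slow share of troponin I, *Tnni1* over *Tnni1* and *Tnni2*, was 0.0616% in Oregon and 1.35% in N215, the 2 tumors with the highest *Myh4* shares. It was 8.56% in Montana, 7.21% and 6.57% in the spine and pelvis of N43, and 14.2%, 11.04%, 3.21% and 65.8% in the right pelvis, left limb, left shoulder and right femur of N42, the last on 38 counts. The slow shares of troponin T were also lowest in Oregon (0.180%) and N215 (0.687%). In the N25 tumor, where *Myh7* took nearly all myosin counts, only 6 troponin I counts were found and 1 of them was of the slow form, while 94.4% of 18 troponin C counts were of *Tnnc1*, which the heart also uses.

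Over 11 mice with troponin counts, no relation of the *Myh7* share to a slow troponin share passed the test. Pearson's r was 0.07 for troponin I, 0.17 for troponin T and 0.54 for troponin C (permutation p adjusted over the 3 relations, 0.886, 0.886 and 0.533). Spearman's rho was 0.23, 0.37 and −0.17 (permutation p adjusted over the 3 relations, 0.607 for each). Without N25 and Prince, the mice farthest from the median *Myh7* share, r was 0.25, 0.10 and −0.33. The value for troponin C thus changed sign. Several points are thin, since the troponin C shares of Prince and Zelda rest on 1 count each and the troponin I shares of Grilka, Prince and N25 on 5, 6 and 6.

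Antisense genes overlap 3 of the isoforms, and the strand of counting is not given in the sources used here, so reads of the partners could not be told apart by strand. The counts of these partners were small. *Myhas*, which overlaps *Myh1*, had at most 18 counts, in Oregon, *9430073C21Rik*, which overlaps *Myh2*, at most 15, in Montana, and *Mhrt* and *Gm31251*, which overlap *Myh7*, at most 11 and 15, in the N25 tumor.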

How the data were processed

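RNA was measured in 16 osteosarcomas, 8 labeled KO and 8 labeled WT for *Arid1a*. According to the labels and the study's methods, ribosomal RNA was removed, reads of 50 cycles were sequenced and aligned with Novoalign (2.08.01 in the submitters' processing notes) to mm10 with Ensembl 74 transcript models, up to 50 alignments were allowed per read and the best kept, and reads per gene were counted with USeq before DESeq2 (1.26.0) was run. The authors deposited whole-number counts for every gene, not normalized, and these were used. No column was left unmapped (0).

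The members and gene lists were chosen with earlier results of these data known. KO and WT tumors were compared with edgeR 4.0.16 in R 4.3.3 (TMM, filterByExpr at 10 counts, 15 in total, glmQLFit, glmQLFTest, Benjamini-Hochberg adjustment, threshold 0.05), and only the isoform and list genes were read from the fit. Log2 CPM has a prior count of 2. Shares were compared by exact permutation, with Clopper-Pearson intervals for single tumors. These intervals and floors of 3 counts cover counting error only. Correlations used 100000 permutations on counts summed per mouse, run in scipy 1.17.1 (Python 3.11.15, pandas 2.3.3, numpy 2.4.6), and figures were drawn in matplotlib 3.10.9. The alternatives were DESeq2 1.42.0, DESeq2 size factors, voom of limma 3.58.1 with tumors of 1 mouse correlated (statmod 1.5.0), no filter, sums per mouse, length-scaled shares, shares of tumors with at least 100 isoform counts, and leaving out the lung tumor, mouse N42, each tumor, or Montana and Oregon. The fits were tested on simulated data with known changes. Positions and transcripts come from GENCODE vM21 (GRCm38), where 24974 genes had a length. The text names all 6 isoforms, from each list the genes past the threshold and the 3 with the most CPM per kilobase, and the 3 genes most like each isoform, of which 1 is not reported here. Other names are marked as chosen after their values were seen, apart from *Arid1a*, the troponin pairs and the antisense genes.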

Additional observations from a re-analysis of the deposited data

Results flagged for a closer look

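The log2 CPM and the share of each isoform were searched within each group for a tumor set far apart from the other 7, by the gap to its nearest neighbor over the whole range of the group (above Dixon's critical value at 95%). Of 24 groups of values 5 were flagged. The critical value flags about 1 in 20 groups of independent, normally distributed values. Shares sum to 100% within a tumor and several rest on few counts, so that rate cannot be applied to them. All 5 were shares. The *Myh7* share was 100% in the KO tumor Massa, where the next KO tumor had 22.2%, and it rests on 11 counts. The *Myh7* share was 98.96% in the WT tumor N25, labeled lung, where the next WT tumor had 3.92%, and it rests on 1058 counts in all. The *Myh3* share was 40.0% in the KO tumor Zelda, with 2 of 5 counts, against 11.1% in the next. The *Myh3* share was 9.91% in the right femur tumor of N42, with 43 of 434 counts, against 2.87% in the next WT tumor. The *Myh8* share was 5.26% in the KO tumor Grilka, with 3 of 57 counts, against 1.83% in the next.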

How the results depend on the processing

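No paired analysis was possible because the KO and WT groups share no mice. No isoform's fold change passed the threshold under any alternative run, and the fold changes kept their sign with DESeq2 size factors, with no filter, with sums per mouse, without the lung tumor and without N42. They reversed in DESeq2 for *Myh7* (−1.13) and *Myh3* (−0.64), in limma-voom for *Myh1* (−2.57), *Myh2* (−1.22), *Myh4* (−3.64), *Myh7* (−3.40), *Myh3* (−0.21) and *Myh8* (−0.082), and without Montana and Oregon for *Myh1* (−4.68), *Myh2* (−3.78), *Myh4* (−5.68), *Myh7* (−2.69), *Myh3* (−2.84) and *Myh8* (−4.49). Over the 16 fits that leave out 1 tumor the range was −0.25 to 2.87 for *Myh1*, −0.060 to 2.60 for *Myh2*, 2.59 to 4.70 for *Myh4*, −1.32 to 3.62 for *Myh7*, −0.61 to 1.05 for *Myh3* and −0.47 to 1.28 for *Myh8*. The number of genes called over the whole table was 618, and 2517 with DESeq2, 17 with limma-voom, 10 with sums per mouse, 8 without N42, 372 without Montana and Oregon (an alternative chosen after seeing the data), and from 252 (N42 left shoulder left out) to 1348 (Zelda left out) when 1 tumor was dropped. Share differences reversed with sums per mouse for *Myh1* (2.64 percentage points) and *Myh7* (−8.57), and among tumors with at least 100 counts for *Myh4* (7.13), *Myh7* (−11.1) and *Myh3* (−0.42). That of *Myh2* passed the threshold without Montana and Oregon (19.0), 2 low KO shares whose removal raises the KO mean by construction. Leaving out 1 tumor, the share differences ranged from −11.8 to −4.38 for *Myh1*, 8.08 to 16.02 for *Myh2*, −22.4 to −8.55 for *Myh4*, −8.73 (without Massa) to 15.2 for *Myh7*, 0.788 to 6.598 for *Myh3* and −1.29 to −0.172 for *Myh8*. The causes were not tested. The shares of Massa, Grilka, Zelda and Prince rest on under 100 isoform counts each, in libraries of 1109487, 1812818, 10036373 and 15059640 counts.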
